A study of Canis lupus familiaris with 10 samples.

Results

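Expression of 10 transcription factors and cofactors that set the B cell lineage, the germinal centre state and the plasma cell state was examined in CLBL-1 and 17-71, 2 cell lines of canine B-cell lymphoma, with and without PRMT5 inhibition. The genes were PAX5, EBF1, POU2AF1, SPIB, BCL6, LMO2, MEF2B, IRF4, PRDM1 and XBP1. A gene was followed when a probe set of the canine gene array carried that symbol alone, and where several did, it was represented by the one of highest mean across the 10 arrays. This gave 9 of the 10 genes, out of 15947 symbols measured. SPIB shares its probe set with a neighbouring gene, POLD1, and was not analysed here. Treated CLBL-1 cells (2 arrays) were collected at day 2 after 100 nM of a selective inhibitor of PRMT5, and control CLBL-1 cells (3 arrays) at the same day. Treated 17-71 cells (3 arrays) were collected at day 4 after the same dose, and control 17-71 cells (2 arrays) at the same day. The labels name the inhibitor PR220 and the study names it C220. PRMT5 is the arginine methyltransferase that places symmetric dimethyl marks on histones and other proteins. Both lines are established cultures labelled as coming from lymph node, so each stands for a single tumour. Where the lines are compared, line and day of collection cannot be told apart. The labels do not say whether replicates were separate cultures, although the study calls its replicates biological, so the p-values cover the spread among these arrays, and that spread may be technical.

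B cell identity is built in steps. EBF1 and PAX5 open and hold the B lineage programme and are kept from early B cells until plasma cell differentiation, while POU2AF1 and the Ets factor SPIB serve B cell receptor signalling and the germinal centre reaction. In the germinal centre, BCL6 represses the genes of activation and plasma cell exit, MEF2B activates BCL6 in human B cells, and LMO2 is an adaptor protein by which human germinal centre B cells and the lymphomas derived from them are recognised. IRF4, PRDM1 and XBP1 drive exit to the antibody-secreting plasma cell: high IRF4 and PRDM1 shut the B cell programme down, and XBP1 expands the secretory pathway. The question of the design was which of these factors each line carried, and whether PRMT5 inhibition moved them.

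Values were log2 expression after robust multi-array averaging (RMA), in which a step of 1 is a doubling of signal. The median of all values was 3.75 and the array medians lay between 3.71 and 3.79. The label of B-cell lymphoma was checked on 5 measured B cell markers. All 5 lay above 3.75 in control CLBL-1, against 3 of 5 in control 17-71. A position against this median is a description and not a detection call. In control 17-71, MS4A1 (CD20) averaged 2.19 and CD79A, a chain of the B cell receptor complex, 3.72. CD79B averaged 4.07, close to the median of all values, whereas CD22 averaged 7.37 and CD74 12.4. CD74 was at a like level in control CLBL-1, 12.2. Only part of the B cell markers thus stood clearly high in 17-71, and its name as a B-cell line is taken from the labels and the study. The summed level of the 5 B cell markers was 49.8 in both treated and 50.9 to 51.3 in control CLBL-1 arrays, and 29.3 to 30.3 in treated and 29.5 to 30.0 in control 17-71 arrays. Of 8 T cell markers, 3 lay above 3.75 in control CLBL-1 (CD3D, CD3G and CD2) and 2 in control 17-71 (CD3G and CD2), and CD3G averaged 8.96 in control CLBL-1 and 4.61 in control 17-71. CD2 ran the other way, at 4.89 in control CLBL-1 and 8.18 in control 17-71, and CD3E averaged 1.83 in control CLBL-1 and 1.93 in control 17-71. Of 7 myeloid markers, 2 lay above 3.75 in each line, LYZ and CD68, and CD68 averaged 4.13 in control CLBL-1 and 9.65 in control 17-71. Of 6 plasma cell markers, 5 lay above 3.75 in each line, and TNFRSF17 (BCMA) averaged 1.92 in control CLBL-1 and 1.80 in control 17-71. The part of these markers in the results below was not tested. In a bulk sample fewer expressing cells and less RNA per cell cannot be told apart.

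The untreated lines carried different sets of these factors. Between control CLBL-1 and control 17-71, 9 of 9 factors passed an adjusted p below 0.05, 6 of them higher and 3 lower in CLBL-1. Over all 32391 probe sets, 31.5% passed, 16.8% higher and 14.7% lower. The 5 CLBL-1 arrays and the 5 17-71 arrays did not overlap for any of the 9 factors, as was the case for 30.9% of all probe sets. EBF1, POU2AF1, PAX5, LMO2 and MEF2B were between 10.4-fold and 33.2-fold higher in CLBL-1, and BCL6 was 10.5-fold lower. IRF4, PRDM1 and XBP1 differed by less than 2-fold.

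PAX5 (probe set 14278195), the factor that commits progenitors to the B lineage, measured 8.95 and 8.94 in treated and 8.93, 8.67 and 9.06 in control CLBL-1 arrays. In 17-71 it measured 4.98, 4.95 and 5.05 in treated and 5.14 and 4.93 in control arrays. Every CLBL-1 array thus lay far above every 17-71 array, and all 17-71 arrays were still above the median of all values. The difference between the control groups was 3.85 (log2, SE 0.123, adjusted p = 6.75e-08), or 14.4-fold. Only 0.969% of all probe sets differed by as much between the lines.

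EBF1 is the pioneer factor that acts with PAX5. Its main probe set (14404339) measured 8.53 and 8.49 in treated and 8.65, 8.49 and 8.67 in control CLBL-1 arrays. The 17-71 arrays gave 4.05, 3.35 and 3.92 in treated and 3.65 and 3.45 in control arrays. The 17-71 arrays lay on either side of the median of all values, while the CLBL-1 arrays were all far above it. The control groups differed by 5.05 (SE 0.191, adjusted p = 1.73e-07), or 33.2-fold, and 0.386% of all probe sets differed by as much. Both control 17-71 values lay below the median of all values, so the size of this difference is less certain than its direction. EBF1 was the only one of the 9 factors with a second probe set (14404332), which measured 4.71 to 4.95 in control CLBL-1 and 3.38 to 3.78 in control 17-71 arrays. The second probe set gave the same direction with a smaller difference of 1.28 (SE 0.167, adjusted p = 0.000345), or 2.43-fold.

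POU2AF1 (probe set 14409608), the coactivator OCA-B that binds octamer factors at B cell promoters, measured 7.78 and 7.90 in treated and 8.0, 8.10 and 8.13 in control CLBL-1 arrays. In 17-71 it measured 3.79, 3.46 and 3.79 in treated and 3.79 and 3.76 in control arrays, close to the median of all values. The control groups differed by 4.30 (SE 0.115, adjusted p = 2.49e-08), or 19.7-fold. The differences of PAX5, EBF1 and POU2AF1 were therefore of 1 direction, with all 3 high in CLBL-1.

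**Figure D1:**
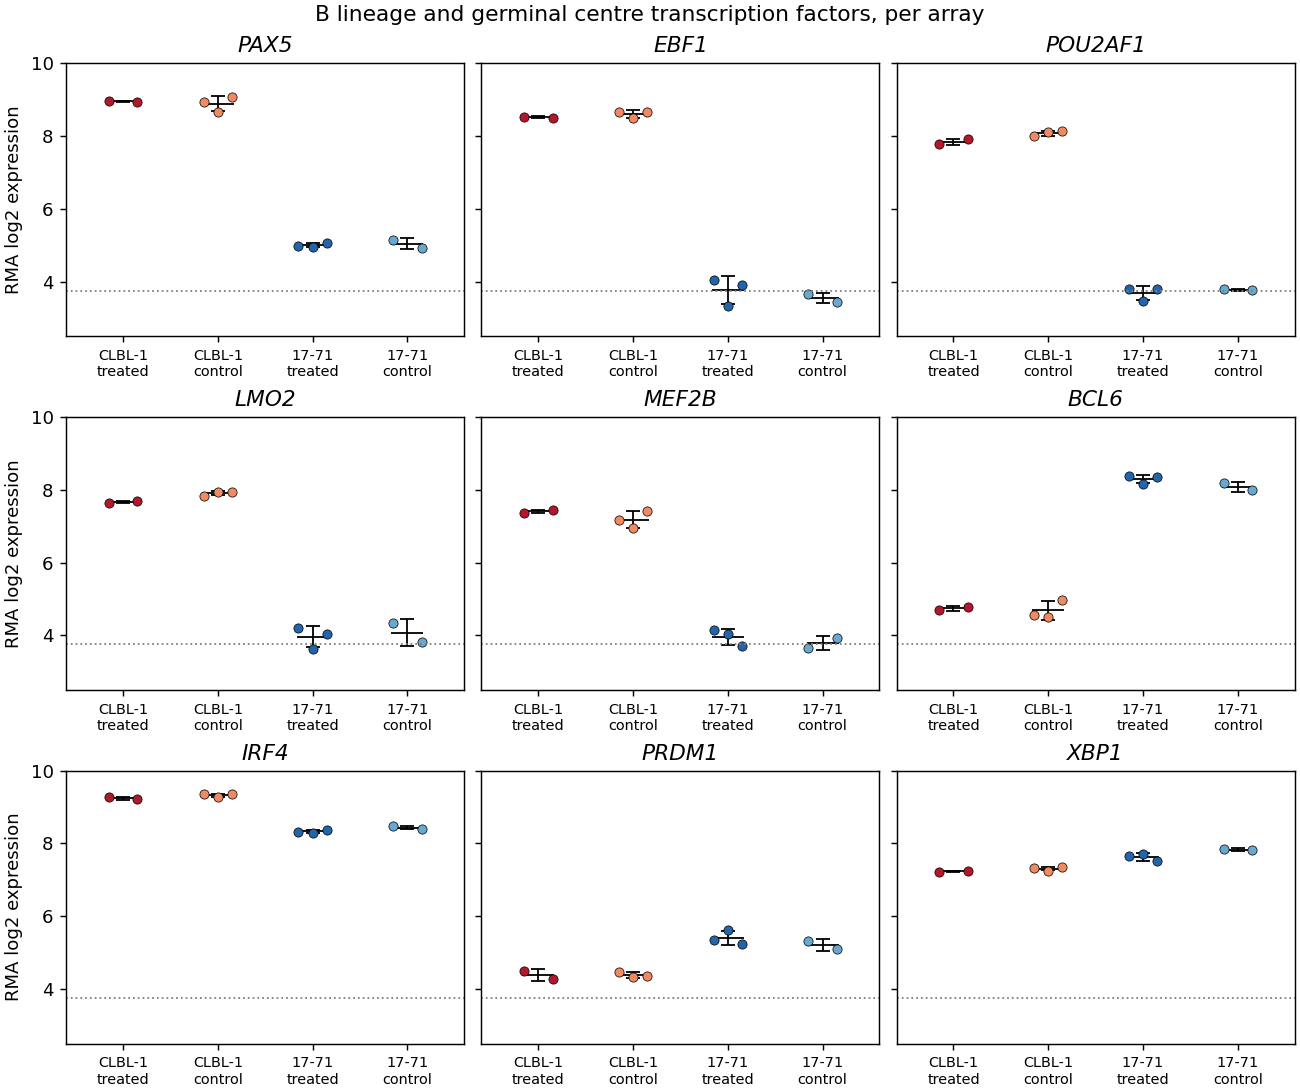
RMA log2 expression of the 9 factors, 1 panel per gene and 1 point per array, in treated and control CLBL-1 (day 2) and treated and control 17-71 (day 4). Bars show the mean and SD of each group and the dotted line the median of all values, 3.75. PAX5, EBF1, POU2AF1, LMO2 and MEF2B sat high in the 5 CLBL-1 arrays and BCL6 in the 5 17-71 arrays, while treated and control points of a line lay close together.

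The germinal centre factors did not move as 1 block between the lines. LMO2 (probe set 14310860) measured 7.65 and 7.69 in treated and 7.84, 7.93 and 7.92 in control CLBL-1 arrays. Its 17-71 values were 4.20, 3.64 and 4.04 in treated and 4.33 and 3.81 in control arrays, with a wider spread than in CLBL-1. The control groups differed by 3.83 (SE 0.188, adjusted p = 8.39e-07), or 14.2-fold, with LMO2 higher in CLBL-1. MEF2B (probe set 14329797), the MADS-box factor that is recurrently mutated in human germinal centre lymphomas, measured 7.37 and 7.43 in treated and 7.17, 6.95 and 7.41 in control CLBL-1 arrays. In 17-71 it measured 4.14, 4.03 and 3.71 in treated and 3.66 and 3.94 in control arrays. Its 17-71 values were spread around the median of all values, and the control groups differed by 3.38 (SE 0.17, adjusted p = 9.66e-07), or 10.4-fold.

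BCL6 (probe set 14393213), the repressor that maintains the germinal centre state, ran in the opposite direction to LMO2 and MEF2B. It measured 4.69 and 4.79 in treated and 4.57, 4.50 and 4.97 in control CLBL-1 arrays. Values in 17-71 were 8.36, 8.17 and 8.35 in treated and 8.18 and 7.98 in control arrays. All CLBL-1 arrays were above the median of all values but lay more than 10-fold below 17-71 in the control groups, with a difference of -3.40 (SE 0.148, adjusted p = 4.16e-07). A line difference of this size was found in 1.33% of all probe sets, against 1.35% for MEF2B and 0.985% for LMO2. CLBL-1 thus paired high MEF2B with low BCL6, and 17-71 paired MEF2B near the median of all values with high BCL6.

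The 3 factors of plasma cell exit differed less. IRF4 (probe set 14393734), which at rising levels moves cells from the germinal centre to the plasma cell, measured 9.26 and 9.20 in treated and 9.34, 9.27 and 9.35 in control CLBL-1 arrays. In 17-71 it measured 8.32, 8.29 and 8.37 in treated and 8.47 and 8.4 in control arrays. Both lines were far above the median of all values, and IRF4 was 1.85-fold higher in control CLBL-1 (difference 0.89, SE 0.0744, adjusted p = 2.23e-05). A line difference of that size was common, at 14.5% of all probe sets.

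PRDM1 (probe set 14281866), which encodes the repressor Blimp-1, measured 4.51 and 4.27 in treated and 4.48, 4.34 and 4.36 in control CLBL-1 arrays. The 17-71 arrays measured 5.34, 5.63 and 5.25 in treated and 5.32 and 5.09 in control arrays. The lines did not overlap, and PRDM1 was 1.76-fold lower in control CLBL-1 (difference -0.81, SE 0.137, adjusted p = 0.00166), a size reached by 16.1% of all probe sets. BCL6 and PRDM1, which repress each other in human and mouse B cells, were thus both lower in CLBL-1.

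XBP1 (probe set 14361408), the factor of the unfolded protein response that is activated by splicing of its messenger RNA, measured 7.22 and 7.25 in treated and 7.33, 7.26 and 7.35 in control CLBL-1 arrays. Values in 17-71 were 7.66, 7.70 and 7.51 in treated and 7.85 and 7.81 in control arrays. The probe set gives 1 value for the gene, and the spliced form was not analysed here. XBP1 was 1.43-fold lower in control CLBL-1 (difference -0.52, SE 0.0837, adjusted p = 0.00127), the smallest line difference of the 9 factors, reached by 27.5% of all probe sets.

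**Figure D2:**
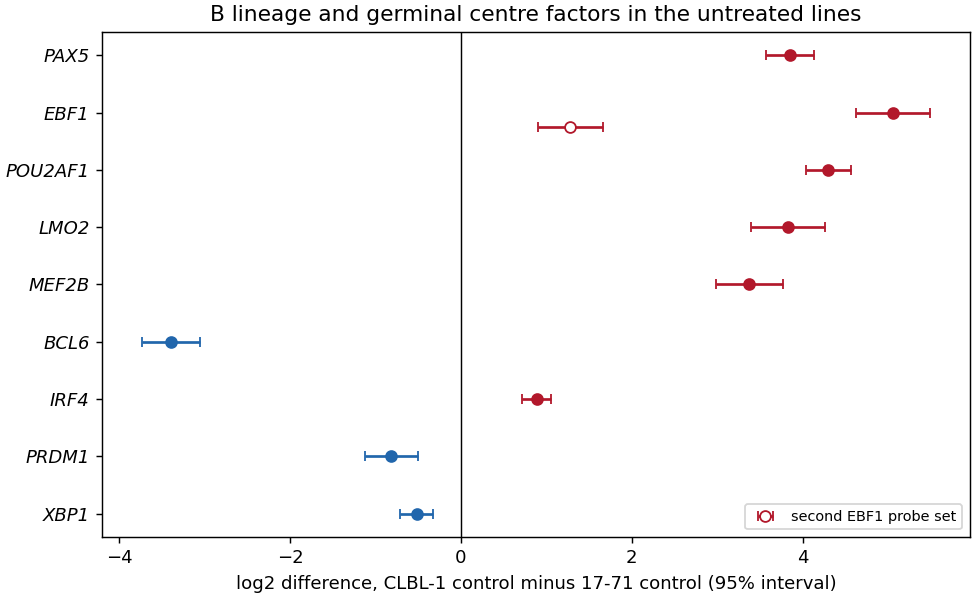
Log2 difference between control CLBL-1 (3 arrays) and control 17-71 (2 arrays) for each factor, with its 95% interval from the joint limma fit; red is higher and blue lower in CLBL-1. EBF1 differed by 5.05 on its main probe set and by 1.28 on its second (open point), and BCL6 ran the other way at -3.40.

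Genes around these factors were counted in the same comparison, control CLBL-1 against control 17-71, where 16.8% of all probe sets passed as higher and 14.7% as lower in CLBL-1 and the median difference was 0.01. Counts of higher and lower genes in these lists are of genes past an adjusted p of 0.05. The lists were chosen with earlier results of these data known, so the counts are a description. MS4A1, CD79A, CD79B and CD22 stand both among the B cell markers above and among the PAX5 and EBF1 targets. Of 17 measured target genes of PAX5 and EBF1, 14 passed as higher in CLBL-1 and 0 as lower, with a median difference over the 17 of 1.69. The 3 that did not pass, named after their values were seen, were VPREB3, RAG2 and RAG1. The genes with the smallest p were MS4A1, at 12.03 in control CLBL-1 and 2.19 in control 17-71 (difference 9.84, adjusted p = 2.07e-09), CXCR5, the chemokine receptor that guides B cells to follicles (5.10), CD79A (5.25) and CD22, an inhibitory co-receptor (2.83). The 17-71 levels of MS4A1, CXCR5 and CD79A lay below the median of all values and signal over background was not analysed here, so the sizes of these differences are not exact. Of 27 other B lineage transcription factors measured, 14 were higher and 8 lower in CLBL-1, with a median of 0.31. ETS1, which restrains plasma cell differentiation in mice, was 15.6-fold higher in CLBL-1, and SPI1 (PU.1), the closest relative of SPIB, was 3.14-fold lower. Of 36 partners and cofactors of the 9 factors, 13 were higher and 11 lower, with a median of -0.01. They included MEF2C, a relative of MEF2B, at 9.97 in control CLBL-1 and 8.41 in control 17-71 (difference 1.56), IRF8, a partner of PU.1, at 8.52 in control CLBL-1 and 9.65 in control 17-71 (-1.12), and TLE4, a corepressor, at 7.75 in control CLBL-1 and 4.44 in control 17-71 (3.30).

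The lists that follow BCL6 and the exit factors were divided. Of 20 measured genes that BCL6 is known to repress, 8 were higher and 8 lower in CLBL-1, the line in which BCL6 itself was 10.5-fold lower, with a median of 0.17. GPR183, a receptor that draws B cells out of the follicle centre, was 3.63-fold and TLR4 4.47-fold higher in CLBL-1. The cyclin gene CCND2 was 16.5-fold and JUN 11.8-fold lower. Some genes stand in more than 1 list, CCND2 among them. Of 24 germinal centre genes, 8 were higher and 9 lower, with a median of 0.01. CD38 was 16.6-fold and MAML3 5.68-fold lower in CLBL-1, while IRAG2 was 2.96-fold and STAP1 2.72-fold higher. Of 19 genes of post-germinal-centre and activated B cells, 6 were higher and 9 lower, with a median of -0.22, among them IL10 at 12.2-fold lower. Of 26 plasma cell and secretory genes, 9 were higher and 12 lower, with a median of -0.17. JCHAIN, which joins polymeric antibodies, was 12.5-fold higher and SDC1 (CD138) 9.85-fold higher in CLBL-1, while FKBP11, a secretory pathway isomerase, was 3.75-fold lower. The exit factors were divided as well: IRF4 had the direction of the 9 higher genes, and PRDM1 and XBP1 that of the 12 lower ones. A link between the factors and these genes was not tested.

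**Figure D3:**
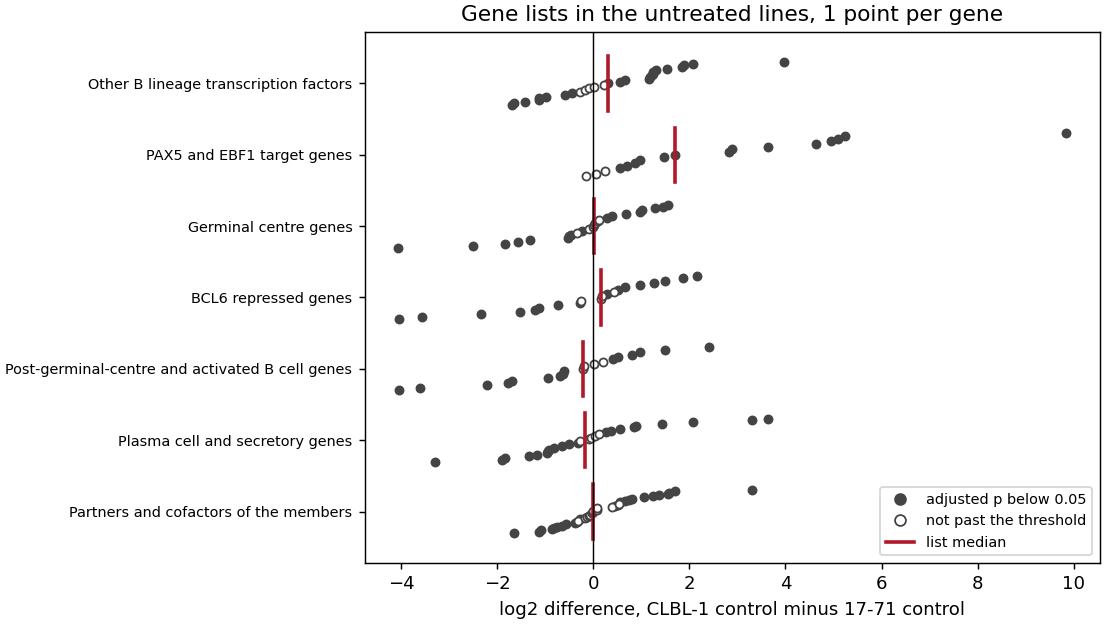
Log2 difference between control CLBL-1 and control 17-71 for each gene of the 7 lists, 1 point per gene, filled where the adjusted p was below 0.05, with the list median as a red line. The PAX5 and EBF1 targets lay almost wholly to the right, with a median of 1.69, while the other lists held points on both sides.

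PRMT5 inhibition moved none of the 9 factors past the threshold in CLBL-1. At day 2, 0 of 9 passed, against 0.133% of all probe sets (43, of which 3 were higher and 40 lower), and their adjusted p lay between 0.332 and 0.988. At an unadjusted p below 0.05 there was 1 of 9 factors, LMO2, against 13.7% of all probe sets. The largest differences were those of LMO2, POU2AF1 and MEF2B. LMO2 averaged 7.67 in treated and 7.90 in control CLBL-1 (difference -0.23, SE 0.0852, adjusted p = 0.332). POU2AF1 averaged 7.84 in treated and 8.08 in control CLBL-1 (difference -0.23, SE 0.0935, adjusted p = 0.369). MEF2B averaged 7.40 in treated and 7.18 in control CLBL-1 (difference 0.23, SE 0.15, adjusted p = 0.57), with overlapping arrays. Both treated arrays lay below all control arrays for LMO2, POU2AF1, IRF4 and XBP1, that is for 4 of 9 factors, against 32.4% of all probe sets without overlap in either direction. The remaining differences were small: -0.09 for EBF1 and IRF4, -0.08 for XBP1, 0.06 for PAX5 and BCL6, and -0.01 for PRDM1. The 95% intervals reached from -0.47 for POU2AF1 to 0.60 for MEF2B, and leave room for changes of that size with 5 arrays.

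In 17-71 at day 4, 0 of 9 factors passed, as did 0% of all probe sets. The adjusted p of the factors lay between 0.609 and 0.935. At an unadjusted p below 0.05 there were 0 of 9 factors, against 9% of all probe sets (2916). XBP1 had the smallest p, at 7.62 in treated and 7.83 in control 17-71 (difference -0.21, SE 0.101, adjusted p = 0.609). All 3 treated arrays lay below both control arrays for XBP1 and for IRF4 (difference -0.10, SE 0.0877), that is for 2 of 9 factors, against 27.8% of all probe sets. BCL6, the factor that stood high in this line, averaged 8.29 in treated and 8.08 in control 17-71 (difference 0.21, SE 0.116, adjusted p = 0.639), with treated replicate 2 below control replicate 1. PRDM1 averaged 5.41 in treated and 5.21 in control 17-71 (difference 0.20, SE 0.153, adjusted p = 0.725), also with overlap. The differences of the factors that were near the median in this line were 0.22 for EBF1, 0.16 for MEF2B, -0.11 for LMO2 and -0.10 for POU2AF1, and that of PAX5 was -0.04. Leaving out 1 array moved that of EBF1 between 0.0824 and 0.434, that of MEF2B between 0.0208 and 0.296 and that of PRDM1 between 0.084 and 0.317. The 95% intervals were wider than in CLBL-1 for some of these, from -0.71 for LMO2 to 0.82 for EBF1.

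**Figure D4:**
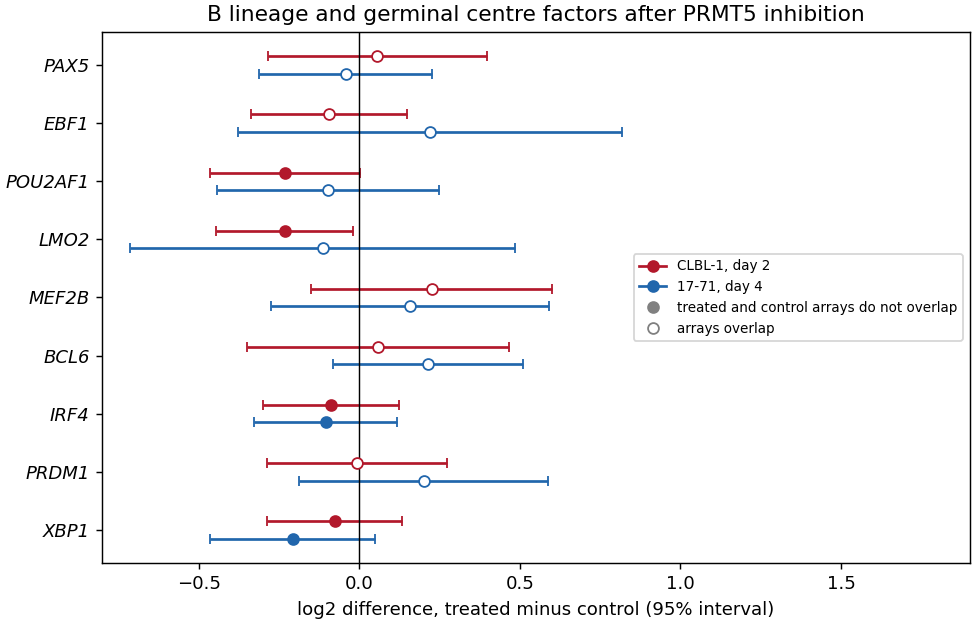
Log2 difference, treated minus control, of each factor with its 95% interval, in CLBL-1 (red, 2 treated and 3 control arrays) and 17-71 (blue, 3 treated and 2 control arrays); filled points mark factors whose treated and control arrays did not overlap. No factor passed the adjusted threshold in either line, and IRF4 and XBP1 were the 2 factors filled in both.

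IRF4 and XBP1 were the 2 of 9 factors whose treated arrays all lay on the same side of the control arrays in both lines, against 6.88% of all probe sets. The difference of IRF4 was -0.09 in CLBL-1 and -0.10 in 17-71, and that of XBP1 was -0.08 in CLBL-1 and -0.21 in 17-71. The common effect, which is the average response over the lines in the joint limma fit, was -0.14 for XBP1 (SE 0.0592, 95% interval -0.28 to -0.01, adjusted p = 0.325). It was -0.10 for IRF4 (SE 0.0526, adjusted p = 0.467) and -0.16 for POU2AF1 (SE 0.0816, adjusted p = 0.417). Over the 9 factors, 0 passed the adjusted threshold for the common effect, against 1.59% of all probe sets, and XBP1 alone passed at an unadjusted p below 0.05, against 14.5%. The common effects of the 9 factors ran from -0.17 for LMO2 to 0.19 for MEF2B, with a median of 0.01, against 0.01 over all probe sets.

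The response of the factors was also compared between the lines. The difference of response, CLBL-1 minus 17-71, ran from -0.32 for EBF1 (SE 0.27) to 0.13 for XBP1 (SE 0.118), and 0 of 9 factors passed, with adjusted p between 0.716 and 0.970. Over all probe sets 0.0309% passed. At an unadjusted p below 0.05 there were 0 of 9 factors, against 11.3% of all probe sets. BCL6, the factor with opposite levels to MEF2B and LMO2 in the 2 lines, had a difference of response of -0.15 (95% interval -0.63 to 0.32). PAX5 had a difference of response of 0.10 (-0.30 to 0.50), and that of PRDM1 was -0.21 (-0.65 to 0.24). The line differences of EBF1, POU2AF1, PAX5, LMO2, MEF2B and BCL6 were thus more than 3 on the log2 scale, while the treatment differences of all 9 factors were below 0.25 in size in either line.

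Among the genes around the factors, 0 of the members of the 7 lists passed in CLBL-1 or in 17-71 alone. In CLBL-1 the target genes of PAX5 and EBF1 had a median difference of -0.16, against 0.01 over all probe sets, and in 17-71 one of 0.04, against 0.01. CD79A averaged 8.30 in treated and 8.97 in control CLBL-1 (difference -0.67, adjusted p = 0.0702). CD274 (PD-L1), listed as repressed by BCL6, averaged 8.27 in treated and 7.57 in control CLBL-1 (difference 0.70, adjusted p = 0.0759), and 8.39 in treated and 8.78 in control 17-71 (difference -0.39, adjusted p = 0.494). At an unadjusted p below 0.05, 13.7% of all probe sets passed in CLBL-1. Of the 26 plasma cell and secretory genes, 4 were higher and 4 lower at that threshold, with a median of 0.06. Those with the smallest p were JCHAIN at 0.49 and MZB1 at 0.47 (adjusted p = 0.154 and 0.181), and PDIA6 and EDEM1, both at -0.31 (adjusted p = 0.217 and 0.237). The summed level of the 6 plasma cell markers was 34.3 in both treated and 32.8 to 33.3 in control CLBL-1 arrays. In 17-71 that sum was 30.3 to 30.8 in treated and 30.8 to 31.0 in control arrays. For the common effect, 1 of 26 plasma cell and secretory genes and 1 of 17 PAX5 and EBF1 targets passed. The other lists had 0, and over all probe sets 1.59% passed. EDEM1, an endoplasmic reticulum protein that directs misfolded glycoproteins to degradation and a known target of XBP1, fell by 0.30 (log2, adjusted p = 0.0348). It averaged 9.83 in treated and 10.14 in control CLBL-1, and 8.96 in treated and 9.25 in control 17-71. The plasma cell and secretory genes were divided for the common effect, 12 positive and 14 negative, with a median of -0.01. CXCR5 was the other list gene that passed for the common effect (0.34, adjusted p = 0.0267), with -0.18 in CLBL-1 and 0.85 in 17-71, and leaving out any 1 of the 10 arrays ended both calls (adjusted p 0.068 to 0.134 for EDEM1 and 0.0548 to 0.115 for CXCR5).

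For each factor, the genes whose pattern was most like its own were taken after each line had been centred on its own mean, over 10 arrays. The closest were RNF146 for PAX5 (Pearson's r = 0.969), LY6G6C for EBF1 (0.958), B4GALNT4 for POU2AF1 (0.936), TUFM for BCL6 (0.929) and TDO2 for LMO2 (0.979). They were DAB2 for MEF2B (0.948), XPO6 for IRF4 (0.968), YTHDF3 for PRDM1 (0.950) and SLC2A6 for XBP1 (0.958). The median of the highest r over all symbols was 0.954, with 5th and 95th percentiles of 0.921 and 0.985, and all 9 factors lay within that range. No factor had another of the 9 among its 3 closest genes.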

How the data were processed

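Total RNA of 10 samples was measured on Affymetrix CanGene 1.0 ST arrays, 1 array per sample. The values that the authors deposited are on a log2 scale, 1 per probe set and array, after robust multi-array averaging (RMA). Affymetrix Expression Console and limma are further tools in the submitters' processing notes, which give no versions. Whether both lines were normalised in 1 run is not given in the sources used here. RMA brings arrays to a like distribution (array medians here 3.71 to 3.79), so a change in total RNA per cell would not appear. Levels of different genes were not tested against each other. Of 32391 probe sets, 16545 had 1 symbol in the platform annotation, 370 several and 15476 were unnamed here. The gene IDs of 8 of the 9 factors carried the same symbol in the RefSeq table of the dog assembly UU_Cfam_GSD_1.0; that of LMO2 was not matched.

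Each line was fitted alone (residual df 3) and all 4 group means jointly (residual df 6) with limma 3.58.1 in R 4.3.3 (lmFit, eBayes, two-sided), with Benjamini-Hochberg adjustment over all probe sets and a threshold of 0.05. The fits were tested on simulated data. Arrays have no read depth, and their number limits the precision. The genes named were all factors, up to 4 genes with the smallest p in each list, the markers, and the closest genes by Pearson's r. The factors, lists and markers were chosen with earlier results of these data known. Alternatives were the unadjusted threshold, a joint fit for both lines, an intensity trend with robust variances, quantile and cyclic loess normalisation, a filter on low values, other probe sets of a symbol, the replicate number as a block and leaving out each array. A planned search of promoter motifs was not run.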

Additional observations from a re-analysis of the deposited data

Results flagged for a closer look

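CXCR5, the follicle-homing chemokine receptor counted here among the targets of PAX5 and EBF1, was the 1 named gene whose response differed between the lines by its own test (difference of response, CLBL-1 minus 17-71, -1.03 on the log2 scale, SE 0.11, adjusted p = 0.0401). It measured 8.59 and 8.54 in treated and 8.68, 8.76 and 8.80 in control CLBL-1 arrays (difference -0.18). It measured 4.52, 4.50 and 4.47 in treated and 3.71 and 3.58 in control 17-71 arrays (difference 0.85, adjusted p = 0.389 in that line alone). Treated and control arrays did not overlap in either line, as for 32.4% of all probe sets in CLBL-1 and 27.8% in 17-71. Both control 17-71 values lay below the median of all values, 3.75. The sizes of the 17-71 difference and of the difference of response are therefore less certain. Leaving out any 1 of the 10 arrays ended the call, with adjusted p between 0.0923 and 0.216 and a difference between -1.09 and -0.96. PAX5 and EBF1 had differences of 0.06 and -0.09 in CLBL-1 and -0.04 and 0.22 in 17-71. The groups held 2 or 3 arrays, too few to look for single outlying arrays within a group.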

How the results depend on the processing

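All 9 factors stayed past the threshold between control CLBL-1 and control 17-71, in the same direction, under the alternatives run (137 values, highest adjusted p 0.0412). No factor passed for the treatment under any alternative with adjustment (lowest adjusted p 0.0958 in CLBL-1, 0.391 in 17-71, 0.147 for the common effect and 0.317 for the difference of response), and without adjustment 1 passed in CLBL-1 (LMO2) and 1 for the common effect (XBP1). The counts of probe sets moved more. In CLBL-1 the 43 became 4444 without adjustment, 607 in the joint fit, 1310 with the intensity trend and 655 with the filter on low values, and 0 without any 1 array (0 to 0). In 17-71 the 0 became 2916 without adjustment, 15 in the joint fit and 35 with the trend. For the common effect the 515 became 4689 without adjustment, 1404 with the trend, 1371 with the filter and 155 to 305 without 1 array. For the difference of response the 10 became 3654, 288, 164 and 0 to 2 under the same settings. The cause was not tested.

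Small treatment differences changed sign. PRDM1 in CLBL-1 was 0.0187 with quantile and 0.00735 with cyclic loess normalisation, EBF1 in CLBL-1 was 0.0154 on its second probe set, the common effect of PAX5 was -0.00358 and the difference of response of IRF4 -0.00435 with cyclic loess. Without 1 array, values in CLBL-1 ran from -0.053 to 0.145 for PAX5, -0.031 to 0.204 for BCL6 and -0.128 to 0.115 for PRDM1. In 17-71 they ran from -0.148 to 0.065 for PAX5, -0.154 to 0.014 for POU2AF1 and -0.375 to 0.148 for LMO2. The common effect ran from -0.047 to 0.061 for PAX5 and -0.0058 to 0.170 for EBF1. The difference of response ran from -0.011 to 0.205 for PAX5, -0.380 to 0.144 for LMO2, -0.070 to 0.205 for MEF2B and -0.019 to 0.053 for IRF4. A fit without 1 array of a pair takes the lone array to vary like the other groups.

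Same-numbered treated and control arrays did not deviate together (correlations of -0.026 to 0.008). With so few pairs, these values cannot tell whether such arrays shared a culture or a batch. With the replicate block, 0 probe sets passed in CLBL-1, in 17-71, for the common effect and for the difference of response, 7674 passed between the control groups, and the difference of response of BCL6 became 0.019. Fitted alone, each line had 1 residual df under the block. No factor had passed for the treatment before, so with 0 probe sets passing the treatment calls could not change. Between the control groups, all factors stayed past the threshold under the block. Signal over background was not analysed here. In 17-71, EBF1 and LMO2 had the largest standard errors of the treatment difference (0.235 and 0.236). The standard errors of POU2AF1 and MEF2B were 0.136 and 0.17, and all of these genes lay near the median of all values there. The cause of the larger standard errors was not tested.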
